A study of Mus musculus with 4 samples.

Results

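Bile acid synthesis is described here through 10 genes, 9 enzymes and the repressor Nr0b2, chosen by name from the 22180 named genes of the arrays: Cyp7a1, Cyp8b1, Hsd3b7, Akr1d1, Cyp27a1, Cyp7b1, Cyp39a1, Slc27a5, Baat and Nr0b2. Each of the 10 had 1 probe set with a single gene symbol, so each value is that probe set's. The cells were primary hepatocytes from 2-month-old male mice. There were 4 groups of 1 array each: Chrebp-KO cells with 25 mM fructose (KO fructose), Chrebp-KO cells without it (KO control), wildtype cells with 25 mM fructose (WT fructose) and wildtype cells without it (WT control). All were cultured for 16 h in serum-free conditions, so the controls share the culture time and the absence of serum with the fructose groups. The deleted part of Chrebp (the gene Mlxipl) is not named in the labels, nor is it said in which cells it was lost or how many mice gave each culture. The extraction label names liver RNA, whereas every other label names hepatocytes.

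Bile acids are made from cholesterol in hepatocytes. In the classical route Cyp7a1 carries out the rate-limiting hydroxylation of the sterol ring, Hsd3b7 and Akr1d1 alter the ring, and Cyp8b1 adds the hydroxyl group that separates cholic from chenodeoxycholic acid. In the alternative route Cyp27a1 oxidises the side chain first, and Cyp7b1 then hydroxylates the ring of the resulting oxysterol. Cyp39a1 is a further ring hydroxylase, which acts mainly on another oxysterol. Slc27a5 joins the product to coenzyme A and Baat conjugates it, mostly to taurine in mice. Bile acids activate the nuclear receptor FXR (Nr1h4), which raises Nr0b2 (SHP), a receptor without a DNA-binding domain that represses Cyp7a1 and Cyp8b1. ChREBP is a transcription factor that responds to sugars, and the comparisons show the fructose response with and without it.

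Levels are log2 values after robust multi-array average (RMA), in which 1 unit is a 2-fold difference. The background level was 4.764, the 95th percentile of the mean level of 1105 olfactory receptor genes, and between 10368 and 10447 genes lay above it on each array. Each group was a single array, so no replicate spread and no test can be given. A gene is counted as different at 2-fold or more, if it lay above background on at least 1 of the arrays compared. Mlxipl had levels of 7.37 in KO fructose, 7.42 in KO control, 8.43 in WT fructose and 8.08 in WT control, which checks the genotype only in part because the probes may lie outside the deleted region. Of 10 hepatocyte markers, 9 had a value and 8 lay above background on every array; Ass1 lay below it on all 4.

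Of the 10 genes, 5 lay above background on all 4 arrays (Cyp27a1, Cyp7b1, Slc27a5, Hsd3b7 and Akr1d1), 2 on 3 arrays (Cyp8b1 and Nr0b2), 2 on 2 arrays (Cyp39a1 and Baat) and Cyp7a1 on 0. The levels of different genes rest on different probes and are not compared with each other.

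**Figure D1:**
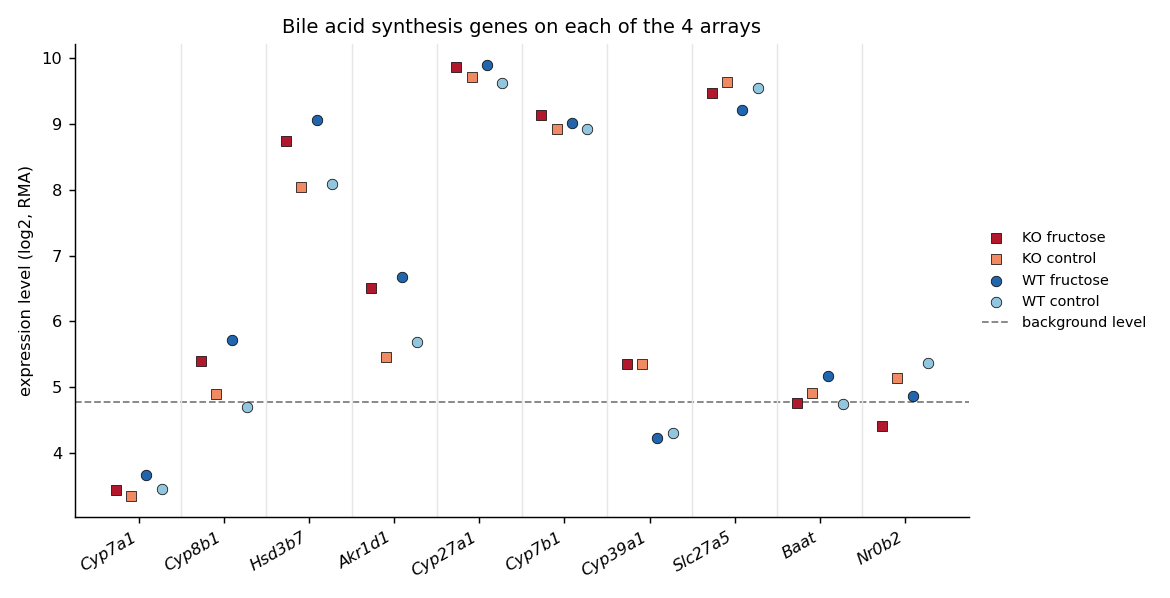
Log2 expression level (vertical axis) of the 10 genes on the 4 arrays, 1 point per array, with the background level of 4.764 as a dashed line. Hsd3b7, Akr1d1 and Cyp8b1 are higher on both fructose arrays, Cyp39a1 is higher on both KO arrays, and all 4 Cyp7a1 points lie below the line.

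The first enzyme of the classical route was not seen above background, while Hsd3b7, Akr1d1 and Cyp8b1, which follow it, were higher with fructose in both genotypes. Cyp7a1 had levels of 3.44 in KO fructose, 3.35 in KO control, 3.66 in WT fructose and 3.45 in WT control. All 4 values were below background, so no fold is given for the rate-limiting enzyme in any comparison.

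Cyp8b1 had levels of 5.40 in KO fructose, 4.90 in KO control, 5.72 in WT fructose and 4.70 in WT control. Both fructose arrays were higher than both control arrays, and only WT control lay below background. The fructose difference was 0.50 (log2) in KO, a 1.42-fold higher level, and 1.02 in WT, at least 1.94-fold against the background level.

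Hsd3b7, the dehydrogenase that acts on the ring after the first hydroxylation, had levels of 8.74 in KO fructose, 8.04 in KO control, 9.06 in WT fructose and 8.09 in WT control. The fructose arrays were again the 2 highest, by a fold of 1.63 in KO and 1.96 in WT.

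Akr1d1, the reductase that bends the sterol ring, had levels of 6.50 in KO fructose, 5.45 in KO control, 6.67 in WT fructose and 5.69 in WT control. Its fructose difference was 1.05 (log2) in KO and 0.98 in WT, a fold of 2.07 in KO and 1.97 in WT. Akr1d1 thus had nearly the same fructose difference with and without ChREBP, whereas that of Hsd3b7 was smaller in KO, by a log2 difference of -0.26 between the effects. For Cyp8b1 the same difference was -0.52 as measured and -0.45 with the dim WT control value raised to background. Of 11050 detected genes, 30.3% had a difference between the effects at least as large in size as Hsd3b7, and 77% as Akr1d1.

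Among all detected genes the fructose differences of these enzymes lay in the upper part of the range. In KO, 2.49% of 10752 detected genes differed by at least as much as Akr1d1, 7.28% as much as Hsd3b7 and 16.6% as much as Cyp8b1. In WT, 6.43% of 10814 differed by at least as much as Akr1d1 and 6.64% as much as Hsd3b7. No such share is given for Cyp8b1 in WT, where the control value is below background.

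The regions before the start sites of Cyp8b1, Hsd3b7 and Akr1d1, the genes higher with fructose, and of Nr0b2, lower with fructose, are shown so that their sequence can be read beside the values. They are the 250 bases before the start in RefSeq GRCm38.p6, 5′ to 3′ on the gene's strand: chr9:121916306-121916555 (minus strand) for Cyp8b1, chr7:127800359-127800608 (plus) for Hsd3b7, chr6:37529923-37530172 (plus) for Akr1d1 and chr4:133553126-133553375 (plus) for Nr0b2. Capitals mark matches, on either strand, to CACGTG (an E-box, the kind of element ChREBP binds in pairs), AGGTCA (a nuclear receptor half-site) or AAAGTCC (the core of sites bound by HNF4).
Cyp8b1: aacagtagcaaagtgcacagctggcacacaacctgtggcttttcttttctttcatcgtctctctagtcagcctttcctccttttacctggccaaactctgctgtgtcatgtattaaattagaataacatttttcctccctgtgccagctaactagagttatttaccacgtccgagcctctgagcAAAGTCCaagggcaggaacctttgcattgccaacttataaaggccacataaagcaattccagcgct
Hsd3b7: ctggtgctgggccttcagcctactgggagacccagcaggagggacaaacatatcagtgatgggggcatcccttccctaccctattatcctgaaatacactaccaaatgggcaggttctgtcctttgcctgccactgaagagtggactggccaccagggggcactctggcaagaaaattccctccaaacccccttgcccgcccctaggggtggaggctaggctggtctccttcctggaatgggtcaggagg
Akr1d1: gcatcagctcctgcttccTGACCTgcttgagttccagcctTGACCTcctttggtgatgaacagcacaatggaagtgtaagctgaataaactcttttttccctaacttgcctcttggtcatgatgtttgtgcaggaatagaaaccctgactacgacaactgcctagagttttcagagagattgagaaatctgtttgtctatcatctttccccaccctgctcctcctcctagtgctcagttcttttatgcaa
Nr0b2: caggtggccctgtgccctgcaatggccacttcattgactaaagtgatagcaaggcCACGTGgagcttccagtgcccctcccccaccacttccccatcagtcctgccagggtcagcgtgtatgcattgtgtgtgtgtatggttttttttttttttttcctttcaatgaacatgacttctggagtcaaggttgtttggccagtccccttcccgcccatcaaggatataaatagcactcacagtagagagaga

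The windows of 5 of the 10 genes were matched, these 4 and Cyp27a1. The Cyp8b1 window held AAAGTCC at bases 66 to 60 before the start, a match found in 3.58% of all 32851 windows. This motif was added after the sequences were seen, so the share does not measure how unusual the Cyp8b1 match is. The Akr1d1 window held the half-site on the reverse strand, read as TGACCT, at bases 232 to 227 and 210 to 205, and 14% of all windows held at least 1. The Nr0b2 window held CACGTG at bases 195 to 190, as did 6.02% of all windows. Hsd3b7 and Cyp27a1 had no match to any of the 3 motifs in this window. None of the motifs overlapped another, and a match describes letters, not binding.

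The oxysterol enzymes of the alternative route differed little with fructose, and Cyp39a1 stood apart by genotype. Cyp27a1 had levels of 9.87 in KO fructose, 9.72 in KO control, 9.89 in WT fructose and 9.62 in WT control. Cyp7b1 had levels of 9.13 in KO fructose, 8.93 in KO control, 9.02 in WT fructose and 8.92 in WT control. Over the 4 arrays Cyp27a1 spanned 0.27 and Cyp7b1 0.21 (log2), with the fructose array the higher of each pair, by 1.11-fold in KO and 1.20-fold in WT for Cyp27a1 and by 1.15-fold in KO and 1.07-fold in WT for Cyp7b1.

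Cyp39a1 had levels of 5.35 in KO fructose, 5.35 in KO control, 4.22 in WT fructose and 4.30 in WT control. The KO arrays lay above background and the WT arrays below it, in either medium, and fructose made a difference of 0.00 (log2) in KO. KO was higher than WT by a log2 difference of 1.13 in fructose medium and 1.05 in control medium. Because both WT values lie below background, only a bound is given: set against the background level, the KO level was higher by at least 0.59 (log2) in each medium. The fructose difference is not given for Cyp39a1 in WT, where both arrays were below background.

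The enzymes that activate and conjugate bile acids differed by less than 1.5-fold in the values given below. Slc27a5, the bile acid coenzyme A ligase, had levels of 9.48 in KO fructose, 9.63 in KO control, 9.21 in WT fructose and 9.55 in WT control. It was lower with fructose by 1.11-fold in KO and 1.26-fold in WT, the opposite direction to Hsd3b7, Akr1d1 and Cyp8b1.

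Baat, which conjugates bile acids to amino acids, had levels of 4.76 in KO fructose, 4.91 in KO control, 5.17 in WT fructose and 4.74 in WT control. Only KO control and WT fructose lay above background. With fructose Baat was at least 1.11-fold lower in KO and at least 1.33-fold higher in WT, so its direction differed between genotypes by amounts close to the background level.

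Nr0b2, the repressor, had levels of 4.41 in KO fructose, 5.14 in KO control, 4.86 in WT fructose and 5.37 in WT control. Both fructose arrays were lower than both control arrays, and KO fructose lay below background. Nr0b2 was at least 1.30-fold lower with fructose in KO and 1.43-fold lower in WT, while Cyp8b1, a gene it is known to repress, was higher in both. A link between these differences was not tested.

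**Figure D2:**
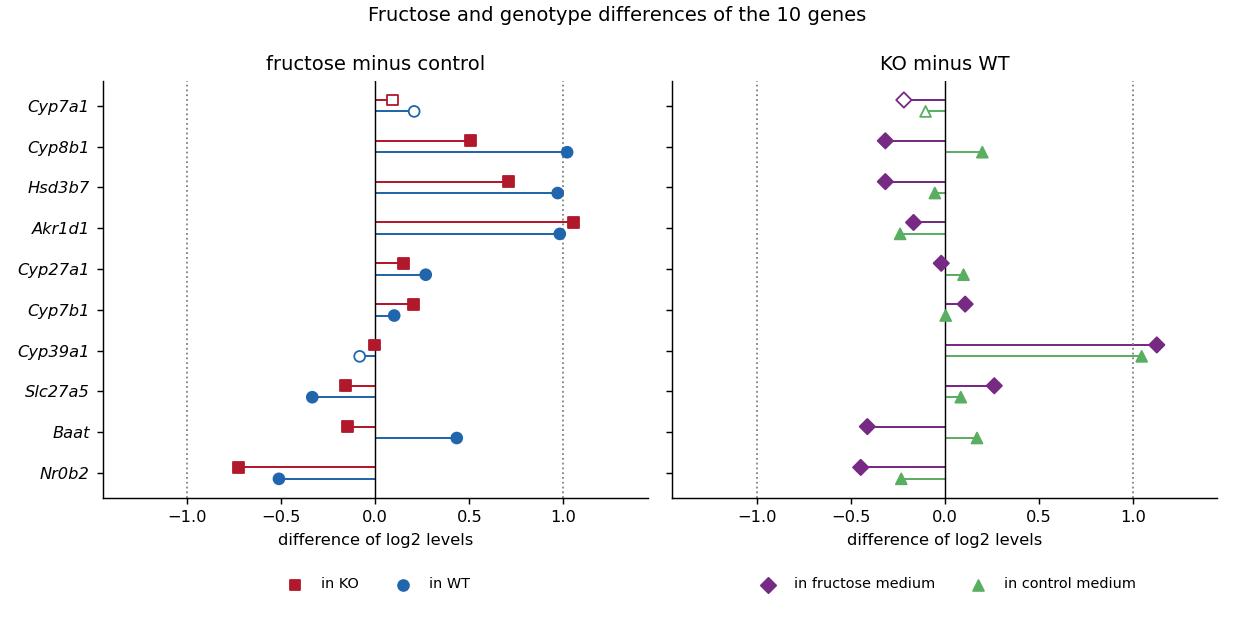
Differences of log2 levels (horizontal axes) for each gene, fructose minus control on the left (squares KO, circles WT) and KO minus WT on the right (diamonds fructose medium, triangles control medium). Dotted lines mark 2-fold, open symbols a gene below background on both arrays. Akr1d1, Hsd3b7 and Cyp8b1 lie furthest right with fructose, Nr0b2 furthest left, and Cyp39a1 is the only gene past a dotted line by genotype.

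Counted over the genes above background, 1 of 9 was at least 2-fold higher with fructose in KO (Akr1d1), where the share of all detected genes was 1.68%, and 0 of 9 at least 2-fold lower, against 1.18%. In WT, 1 of 8 was at least 2-fold higher (Cyp8b1), against 3.1% of all detected genes, and 0 of 8 lower, against 3.01%. At 1.5-fold, 2 of 9 were higher in KO (Hsd3b7 and Akr1d1), against 6.11%, and 3 of 8 in WT (Cyp8b1, Hsd3b7 and Akr1d1), against 9.46%. At the same fold 1 of 9 was lower in KO (Nr0b2), against 5.75%, and 0 of 8 in WT, against 10.8%. The call for Cyp8b1 in WT rests on a control value below background and ends when that value is raised to the background level, as does the 1.5-fold call for Nr0b2 in KO, where the fructose value is dim. The median fructose difference was 0.15 in KO and 0.35 in WT, while over all detected genes it was 0.00 in KO and -0.03 in WT. The 2 medians cover different genes, 9 in KO and 8 in WT, because Cyp39a1 was below background on both WT arrays. Without the filter on dim genes the median was 0.12 in KO and 0.24 in WT.

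By genotype, Cyp39a1 was the 1 gene of 9 at least 2-fold higher in KO in either medium. Of all detected genes, 0.543% were that much higher in fructose medium and 0.0373% in control medium. This call ends in both media when its WT values are raised to the background level. At least 2-fold lower were 0 of 9 in fructose medium, against 0.739%, and 0 of 9 in control medium, against 0.196%. The median KO minus WT difference was -0.17 in fructose medium, where 6 of 9 were below 0, against 5080 of all 10688 detected genes. In control medium the median was 0.09, where 3 of 9 were below 0, against 5575 of 10720. In fructose medium it was -0.0191 with the mean in place of the median, -0.0182 with the stricter filter and -0.0931 with dim values raised to background. Over all detected genes the median was 0.01 in fructose medium and -0.01 in control medium. Without Cyp39a1, the differences ran between -0.45 and 0.26 in fructose medium and between -0.24 and 0.20 in control medium.

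The fructose difference in KO minus that in WT was under 2-fold for all 9 genes above background on at least 1 of the 4 arrays, with 1.03% of 11050 detected genes at least 2-fold in either direction. The 9 include Cyp39a1, whose WT values are both below background. For the genes above background on all 4 arrays it was -0.26 for Hsd3b7, -0.12 for Cyp27a1, 0.07 for Akr1d1, 0.10 for Cyp7b1 and 0.18 for Slc27a5. For Baat it was -0.58 as measured, with 2 of its 4 values below background. The median over the 9 was -0.12, against 0.03 over all detected genes, but it was 0.0715 with the stricter filter on dim genes and -0.00251 with dim values raised to background, so it has no settled direction.

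Markers of other liver cells moved with genotype. The 10 macrophage markers had a median difference, KO minus WT, of -0.56 in fructose medium over 9 detected and -0.53 in control medium over 8. Their summed linear level was 2777 in KO fructose, 2661 in KO control, 2365 in WT fructose and 2777 in WT control, a sum led by Cd68, which was 0.44 (log2) higher in KO in fructose medium. Of the macrophage markers, Adgre1 was below background on every array but WT fructose, and C1qc on all 4. Clec4f, Cd68, Csf1r, Timd4, Marco, C1qa, C1qb and Cd5l lay above it on all 4. The 9 endothelial markers had a summed level of 646 in KO fructose, 664 in KO control, 858 in WT fructose and 934 in WT control. Stab2 and Clec4g were below background on all 4 arrays and the other 7 above it on all 4. Their median difference, KO minus WT, was -0.35 in fructose medium and -0.46 in control medium. In each medium 7 of 7 were below 0, against 5080 of 10688 detected genes in fructose medium and 5575 of 10720 in control medium. With fructose the macrophage median differed by 0.05 in KO and 0.20 in WT, and the endothelial median by -0.03 in KO and -0.10 in WT. Of 6 cholangiocyte markers with a value, Krt19, Krt7, Epcam and Cldn7 were below background on all 4 arrays and Sox9 and Cldn3 above it on all 4. Of 8 stellate cell markers Lrat, Des, Col3a1, Rgs5 and Pdgfrb were below it and Dcn and Col1a1 above it on all 4. In bulk RNA, fewer cells of a type and less RNA per cell cannot be told apart, and the part of these cells in the differences by genotype was not tested. Over 8 detected hepatocyte markers the median KO minus WT difference was 0.06 in fructose medium and -0.01 in control medium. With fructose their median difference was 0.11 in KO and 0.07 in WT. In each genotype 2 of 8 were at least 2-fold higher, against 1.68% of all detected genes in KO and 3.1% in WT. The 2 markers were Tat, an enzyme of tyrosine breakdown, and Cps1, the first enzyme of the urea cycle. Tat was higher by 2.01 (log2) in KO and 2.22 in WT, and Cps1 by 1.40 in KO and 1.41 in WT.

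**Figure D3:**
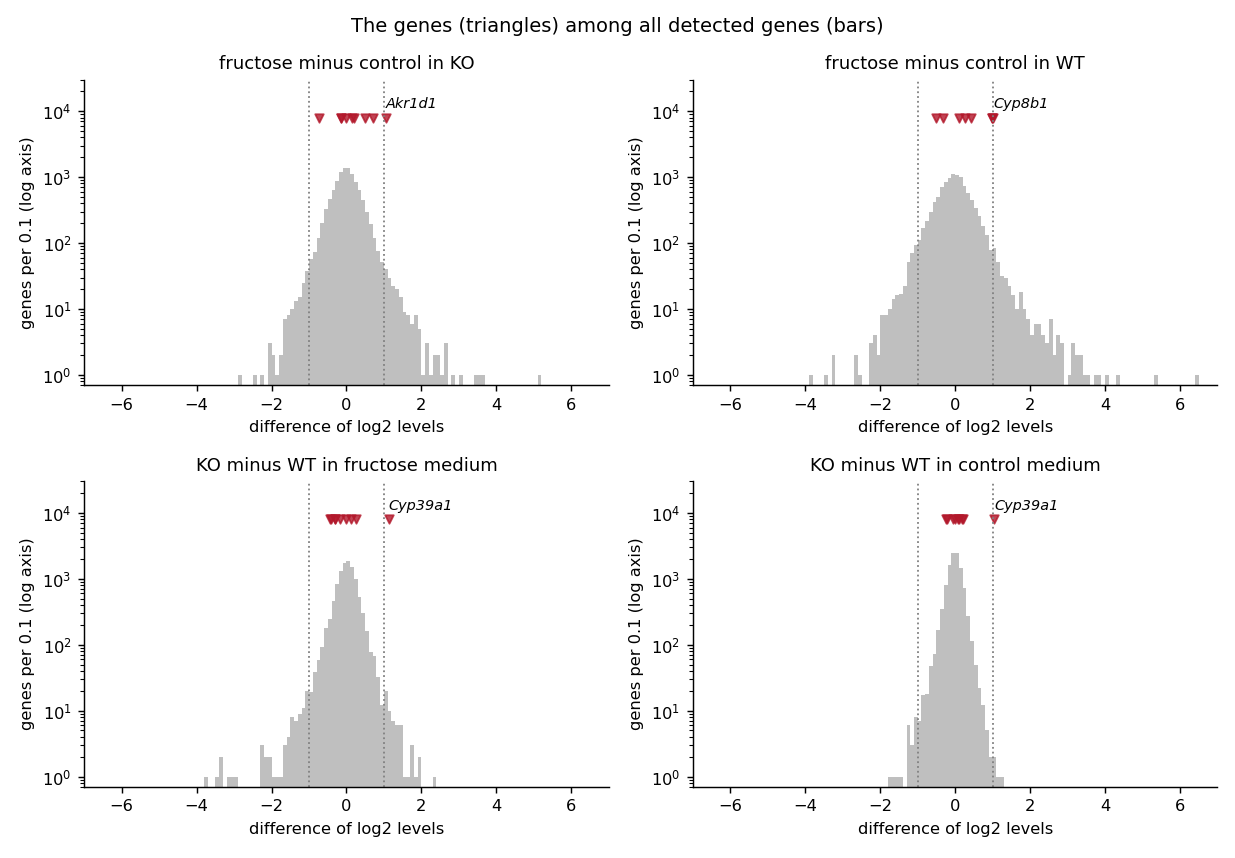
Number of detected genes (vertical log axis) by difference of log2 levels (horizontal axis, steps of 0.1) in 4 comparisons, with the 10 genes as triangles where detected. Dotted lines mark 2-fold, and a triangle beyond them is named: Akr1d1 in KO with fructose, Cyp8b1 in WT with fructose and Cyp39a1 by genotype in both media.

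Further enzymes of side-chain oxidation, oxysterol formation and sterol transport were taken as a list of 19, of which 17 had a value and 13 lay above background. None of the 13 was at least 2-fold different in any comparison. At 2-fold with fructose, the shares of all detected genes were 1.68% higher and 1.18% lower in KO, and 3.1% and 3.01% in WT. By genotype they were 0.543% higher and 0.739% lower in fructose medium, and 0.0373% and 0.196% in control medium. For the difference between the effects the share was 1.03%. With fructose, 3 of 13 were at least 1.5-fold higher in KO, against 6.11% of all detected genes, and 3 of 13 in WT, against 9.46%. At the same fold 1 of 13 was lower in KO, against 5.75%, and 0 of 13 in WT, against 10.8%, and the median difference was 0.14 in KO and 0.16 in WT. The genes singled out next were chosen after their values were seen. Fdx1, the ferredoxin that passes electrons to mitochondrial P450 enzymes such as Cyp27a1, was higher with fructose by a log2 difference of 0.89 in KO and 0.80 in WT. Star, which brings cholesterol to the inner mitochondrial membrane, was higher by 0.93 in KO and 0.68 in WT. Stard4, a cytosolic sterol carrier, was higher by 0.47 in KO and 0.75 in WT. Cyp2c70, which makes the muricholic acids of mice, differed by 0.23 in KO and 0.16 in WT. Hsd17b4, the peroxisomal enzyme of side-chain shortening, was lower by a log2 difference of -0.74 in KO and -0.36 in WT.

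The known regulators of the pathway formed a list of 22, of which 20 had a value. With fructose, Nr1h4 (FXR) differed by -0.50 (log2) in KO and -0.69 in WT, and Nr5a2 (LRH-1), an activator of Cyp7a1 and Cyp8b1, by -0.31 in KO and -0.45 in WT. Hnf4a, a hepatocyte factor that activates the same genes, differed by -0.50 in KO and -0.75 in WT. Nr1h4, Nr5a2, Hnf4a and Nr0b2 were thus lower with fructose in both genotypes and Cyp8b1 was higher, with 1 array per group. Any link between these differences was not tested. In the regulator list 10 of 17 detected genes were above 0 with fructose in KO and 9 of 18 in WT. Over all detected genes it was 5314 of 10752 in KO and 5138 of 10814 in WT. Nfil3, a repressor of the clock output, was the 1 regulator at least 2-fold higher with fructose, by 1.05 over 17 detected in KO and 1.96 over 18 detected in WT; 0 were at least 2-fold lower. These counts stand beside 1.68% of all detected genes higher and 1.18% lower in KO, and 3.1% higher and 3.01% lower in WT. At 1.5-fold, 2 of 17 regulators were higher in KO, against 6.11% of all detected genes, and 2 lower, against 5.75%. In WT 2 of 18 were higher, against 9.46%, and 5 lower, against 10.8%. Prox1, named after its values were seen and known to act against Cyp7a1 expression, was lower by a log2 difference of -0.97 in KO and -0.88 in WT.

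Fgfr4 encodes the receptor through which the intestinal hormone FGF15 lowers bile acid synthesis. Its levels were 7.45 in KO fructose, 7.37 in KO control, 6.42 in WT fructose and 7.13 in WT control. WT fructose was the low array of the 4, and in fructose medium KO was higher than WT by a log2 difference of 1.03. Fgfr4 was the 1 regulator past 2-fold by genotype, 1 of 17 detected in fructose medium, against 0.543% of all detected genes. Its co-receptor Klb lay above background on 1 array, WT fructose, at 4.79.

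**Figure D4:**
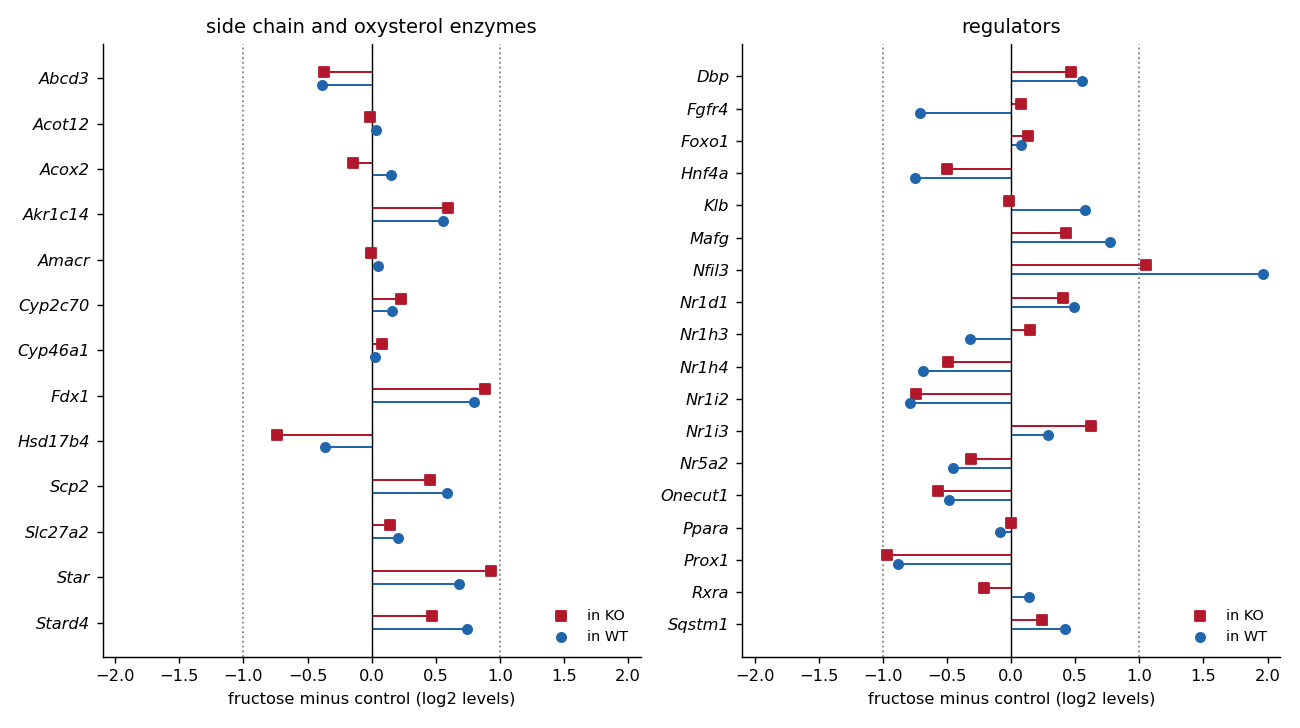
Fructose minus control difference of log2 levels (horizontal axes) for side-chain and oxysterol enzymes (left) and regulators (right) above background on at least 1 array, squares for KO and circles for WT, dotted lines at 2-fold. Fdx1, Star and Stard4 are higher in both genotypes, Nr1h4, Nr5a2, Hnf4a and Prox1 lower in both, and Fgfr4 differs from its control by 0.08 in KO and -0.71 in WT.

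For the 4 genes whose values spanned at least 1 log2 unit, the most alike profiles among detected protein-coding genes were sought by the Euclidean distance of the 4 values after subtracting their mean. Cyp8b1 was nearest to Tmem170b (distance 0.018), Osbpl8 (0.027), an oxysterol-binding protein relative, and Atf6 (0.035), a sensor of endoplasmic reticulum stress. Hsd3b7 was nearest to Pim2 (0.022), Trmt10a (0.024) and Rad18 (0.052), and Akr1d1 to Zfp142 (0.067), Ing3 (0.084) and Fam117b (0.087). With 4 arrays, near-identical profiles are easily met among the many genes with a fructose difference. Cyp39a1 had no such close neighbour. The nearest were Usp17ld (0.34), Maoa (0.36), a monoamine oxidase, and Cyp2a4 (0.38), a steroid hydroxylase, and the probes of Usp17ld and Cyp2a4 may also read close relatives. Cyp2a4 had levels of 8.32 in KO fructose, 8.26 in KO control, 6.96 in WT fructose and 7.57 in WT control. Maoa had levels of 8.92 in KO fructose, 8.67 in KO control, 7.93 in WT fructose and 8.09 in WT control, so both were higher on the KO arrays.

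**Figure D5:**
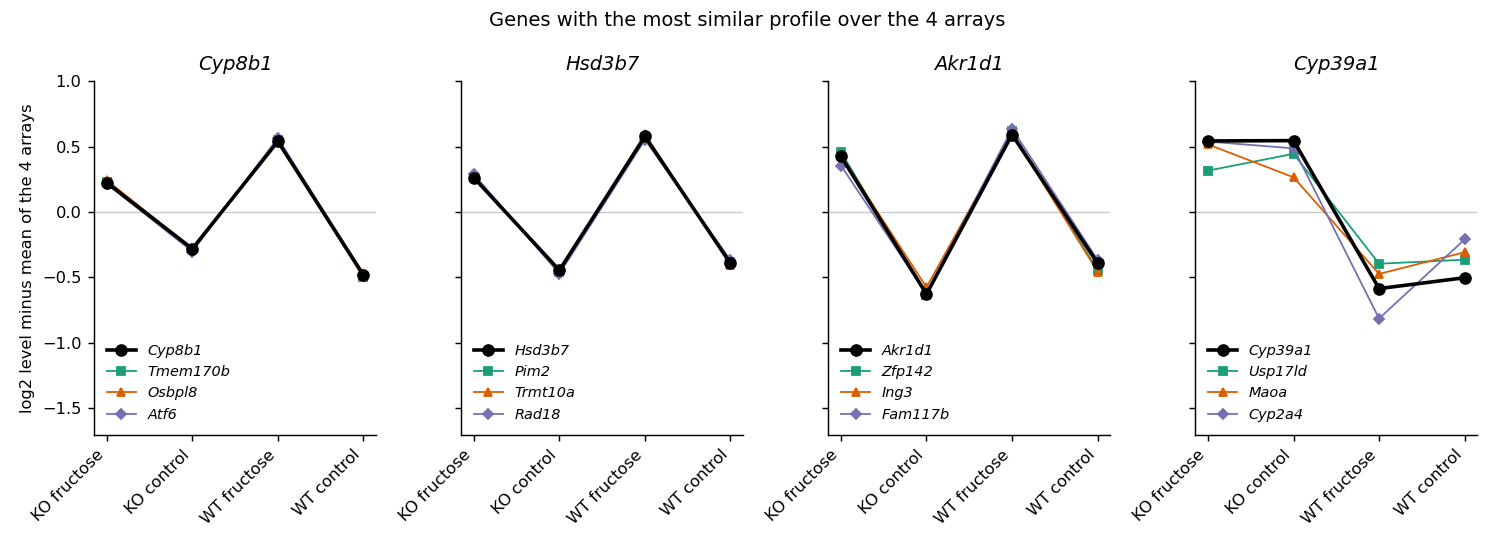
Log2 level minus the mean of the 4 arrays (vertical axis) for Cyp8b1, Hsd3b7, Akr1d1 and Cyp39a1 (black), each with its 3 nearest genes (coloured), on the 4 arrays (horizontal axis). The first 3 genes peak on both fructose arrays, and Cyp39a1 is high on both KO arrays.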

How the data were processed

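Expression was measured on 4 one-colour arrays, 1 per group, hybridised with biotin-labelled cDNA from 400 ng of RNA each, per the labels. The authors deposited log2 values, 1 per probe set and array, made with RMA in R 3.4.0 per the submitters' processing notes. RMA subtracts background, equalises the arrays' distributions and summarises probes, which hides any shift common to a whole array. The sources used here do not give the annotation version or build of the probe sets.

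Of 41345 probe sets, 25335 had a gene in the platform annotation, 23521 a single symbol and 1814 several. Of those with 1 symbol, 23328 were matched by Entrez number to RefSeq (GRCm38.p6), for names only. Probe sets of a gene were averaged in log2, leaving 22180 genes. Differences were taken between arrays with Python 3.11.15 and pandas 2.3.3. A difference against a dim array is bounded by the background level.

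Precision is limited by the number of arrays. No column was left out. The 10 genes and the lists were chosen with earlier results of these data known. The AAAGTCC motif was added after the sequences were seen. Enzymes, regulators and transporters of the related lists were named when they differed by 2-fold in a comparison of 2 arrays, with Nr1h4, Nr5a2 and Hnf4a named in any case. Others, Klb and the cell markers among them, were named after their values were seen. A planned comparison of protein sequences was not run. Alternatives were another filter on dim genes (none, or 1 log2 unit stricter), median centring, repeated quantile normalization, loess (span 0.3), the brightest probe set, probe sets with several symbols, dim values raised to background, 1.5-fold and the mean.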

Additional observations from a re-analysis of the deposited data

Results flagged for a closer look

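Baat moved in opposite directions with fructose in the 2 genotypes, by a log2 difference of -0.15 in KO and 0.43 in WT. Its KO minus WT difference was likewise of opposite sign in the 2 media, at -0.41 in fructose medium and 0.17 in control medium. Baat lay below background in KO fructose and WT control. Cyp8b1 had a KO minus WT difference of -0.32 in fructose medium and 0.20 in control medium. Its WT control value was below background, and raised to that level it left a difference of 0.13 in control medium. For Cyp27a1 the values were -0.0182 in fructose medium and 0.10 in control medium. With 1 array per group none of these differences was tested.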

How the results depend on the processing

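Leaving out an array would leave its group empty. No paired analysis was possible because each group holds 1 array and no test was made. Median centring left every count as it was and every median within 0.1 (log2). The brightest probe set and probe sets with several symbols could not move these genes, which have 1 probe set each and share none. Akr1d1, Cyp8b1 and Cyp39a1 kept their direction where they were 2-fold different under every alternative that gave a value; the stricter filter removed Cyp8b1 and Cyp39a1. The count of genes at least 2-fold different with fructose in WT was 2 after loess correction and after repeated quantile normalization, 3 at 1.5-fold, and 0 with the stricter filter or with dim values raised to background, against 1 as reported. In KO it was 3 at 1.5-fold, against 1. The count by genotype, Cyp39a1 alone, was 0 in both media with the stricter filter or with dim values raised to background, where its difference was 0.59 in either medium. The median with fructose in WT was 0.24 without the dim filter, against 0.35. The median KO minus WT in fructose medium was -0.0191 with the mean and -0.0182 with the stricter filter, against -0.17. The median difference of fructose effects was 0.0715 with the stricter filter and -0.00251 with dim values raised, against -0.12. Dim values raised to background also moved Nr0b2, with fructose in KO to -0.37, by genotype in fructose medium to -0.09 and in the difference of effects to 0.14. Signal near background limits the values of Cyp7a1, Cyp8b1, Cyp39a1, Baat and Nr0b2.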

Other observations

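Among 15 bile acid transporters, 14 had a value and 13 were detected with fructose in each genotype, 3 of them at least 2-fold higher and 1 lower in KO and in WT alike. Of all detected genes, 1.68% were that much higher and 1.18% lower in KO, and 3.1% higher and 3.01% lower in WT. The 3 were Abcb11, the export pump of bile salts, by a log2 difference of 1.40 in KO and 1.32 in WT, and the uptake carriers Slc10a1, by 1.28 in KO and 1.13 in WT, and Slco1b2, by 1.83 in KO and 1.81 in WT. Abcc4, a basolateral exporter, was lower by a log2 difference of -1.01 in KO and -1.24 in WT, and lay below background in WT fructose.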
